A study of Homo sapiens with 12 samples.

Results

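The 48 genes described here encode parts of the kinetochore, the mitotic spindle, the condensed mitotic chromosome and the machinery of cytokinesis. They were taken as a list of gene symbols by their known roles, drawn up when earlier results of these data were known, and each symbol mapped to 1 of the 60617 gene identifiers in the deposited tables. All 48 were among the 17620 genes tested. Expression was measured by mRNA sequencing in SNU308, an established gallbladder cancer cell line of wild-type genotype grown in RPMI medium with fetal bovine serum. The 3 groups of 4 samples each received, at 25 nM, a control siRNA without a target (NTC), siCEACAM6#2 or siCEACAM6#3, and total RNA was taken on day 3. Every group, NTC included, therefore received a small RNA and a transfection reagent, and untransfected cells were not analysed here. The sample labels name Oligofectamine as the reagent, whereas the study's methods name Lipofectamine RNAiMAX for siRNA knockdown, and the difference could not be settled here. According to the series description the samples come from 4 individual experiments, and no label ties a replicate number to a shared day of transfection. All 12 samples are from 1 cell line.

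A dividing cell builds its kinetochores on centromeric chromatin, holds them to spindle microtubules until every chromosome pair is attached from both sides, then separates the chromatids and cuts itself at the cleavage furrow. Most genes of this machinery are transcribed late in the cell cycle, from the end of DNA replication into mitosis, so their transcripts are abundant in growing cultures and scarce in resting cells. Such genes are commonly read as a group in tumour profiles, because the level of MKI67 or TOP2A RNA in a population follows the share of its cells that are cycling. In bulk samples such as these, fewer mitotic cells and less RNA per cell cannot be told apart.

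Both siRNAs are directed at CEACAM6, a cell surface glycoprotein of the carcinoembryonic antigen family. Their 21-base target sequences are shown because the seed of each small RNA can also be looked for in the members. Capitals mark the 7 target bases that pair with positions 2 to 8 of the guide strand.
siCEACAM6#2: cagccatgcaatgCCAAATAa
siCEACAM6#3: ctcctaatagtcaTACTAGTa
Both lie in exon 6 of CEACAM6, in its 3′ UTR, at chr19:41771369-41771389 and chr19:41771611-41771631 on the plus strand (hg38, Ensembl canonical transcript of the GENCODE annotation), and no member holds either sequence in full. The 7 capital letters of siCEACAM6#2 occur in the 3′ UTR of 4 of the 48 members (8.33%), namely CDCA8, ECT2, NUF2 and SMC4, against 15.6% of 13750 tested genes. Those of siCEACAM6#3 occur in 1 member (2.08%), NEK2, against 6.63%. A match of letters is not a shown site of action.

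Total estimated counts ranged from 21799476 to 22059456 per sample, so depth was nearly equal. CEACAM6 was at 577 ± 40.6 counts-per-million (CPM) in NTC, against 328 ± 29.6 with siCEACAM6#2 and 418 ± 22.1 with siCEACAM6#3 (SD, n = 4), and no siRNA sample overlapped NTC (exact permutation test, two-sided, p = 0.0286 for each siRNA, the smallest that 4 against 4 samples allow). The biliary epithelial markers KRT7, KRT8, KRT18, KRT19, EPCAM and CDH1 were abundant, with KRT19 at 3224 transcripts-per-million (TPM) in NTC, and SOX9 was low, at 9.63 TPM. Of 9 markers of other cell types, PTPRC, CD3E, ALB and APOA1 were too low to test, and of the 5 tested only VWF, an endothelial marker, was called, lower with siCEACAM6#2 (-0.44 on the log2 scale). In the members, the siCEACAM6#2 and siCEACAM6#3 samples numbered 1 stood apart from the other 3 of their groups, as described with the first result.

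The members were expressed at moderate levels in NTC. Per transcript length, the highest was UBE2C at 177 ± 0.678 TPM (SD, n = 4), a ubiquitin-conjugating enzyme of the anaphase-promoting complex, and the lowest was KIF14 at 3.42 ± 0.365 TPM. Estimated counts per gene and sample ran from 98 for SPC25 to 4277 for NCAPD2. On the log2 scale the median standard error of a member's fold change was 0.08 with each siRNA.

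Compared with NTC, the members lay lower with both siRNAs, by a small and similar amount for most genes. With siCEACAM6#2 the fold change was negative for 47 of 48 members, with a median of -0.25 on the log2 scale, and with siCEACAM6#3 for 46 of 48, with a median of -0.18. Over all 17620 genes the medians were 0.00017 and -0.0032, and 49.9% and 51.1% of genes were negative. These comparisons share the same 4 NTC samples, so they are not independent of each other. The plot of fold changes against all genes shows the members as a narrow group lying mostly to the left of 0.

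**Figure D1:**
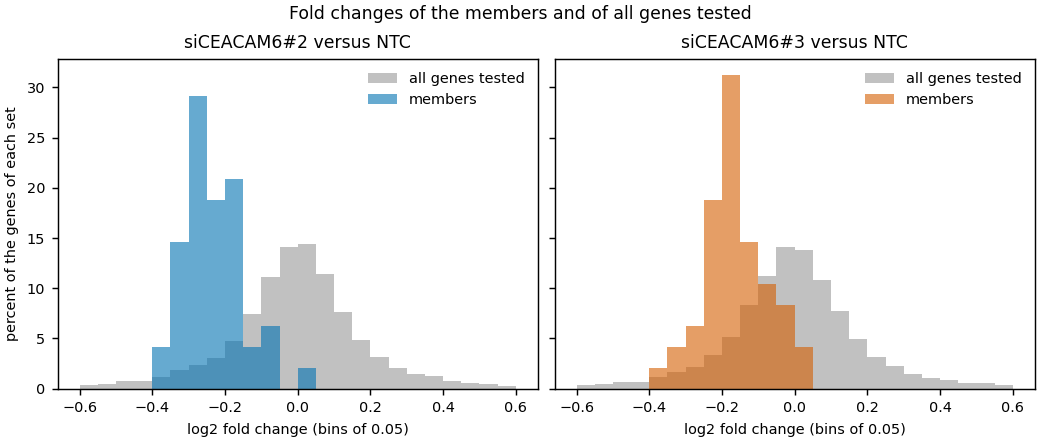
Log2 fold changes versus NTC of the 48 members (coloured) and of all 17620 genes tested (grey), as the percent of each set in bins of 0.05, for siCEACAM6#2 (left) and siCEACAM6#3 (right). Values beyond 0.6 in either direction are not drawn, and no member lies there. The medians of the members are -0.25 and -0.18, those of all genes 0.00017 and -0.0032.

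Few single members passed the test. At a Benjamini-Hochberg adjusted p under 0.05, limma-voom called 3 members lower with siCEACAM6#2 (CDCA8, NCAPD2 and TACC3) against 0.641% of all genes tested, and none higher. It called 0 with siCEACAM6#3, where 0.0170% of all genes were called lower, and 1 in the average of both siRNAs (NCAPD2), against 0.0908%. At an unadjusted p under 0.05, 36 members were lower with siCEACAM6#2 (7.12% of all genes), 21 with siCEACAM6#3 (6.50%) and 32 in the average (6.82%), and none was higher in any of the 3. With siCEACAM6#3, edgeR's quasi-likelihood test called 0 members, against 0.0227% of all genes it called lower, and DESeq2 called 3 (NCAPD2, UBE2C and PRC1), against 0.808%. With siCEACAM6#2 these tools called 4 members, against 0.749%, and 14, against 1.97%, all lower. The shares for DESeq2 are of the genes to which it gave an adjusted p.

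The groups also separated sample by sample for part of the members. All 4 siCEACAM6#2 samples were below all 4 NTC samples for 19 of 48 members, against 5.42% of all genes, and the 4 siCEACAM6#3 samples were for 11 members, against 3.29%. Both held for BIRC5, CDCA3, CDCA8, CENPA, GTSE1, NCAPD2, NEK2 and UBE2C. The share of all genes for which both held was not computed, and both comparisons use the same 4 NTC samples.

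**Figure D2:**
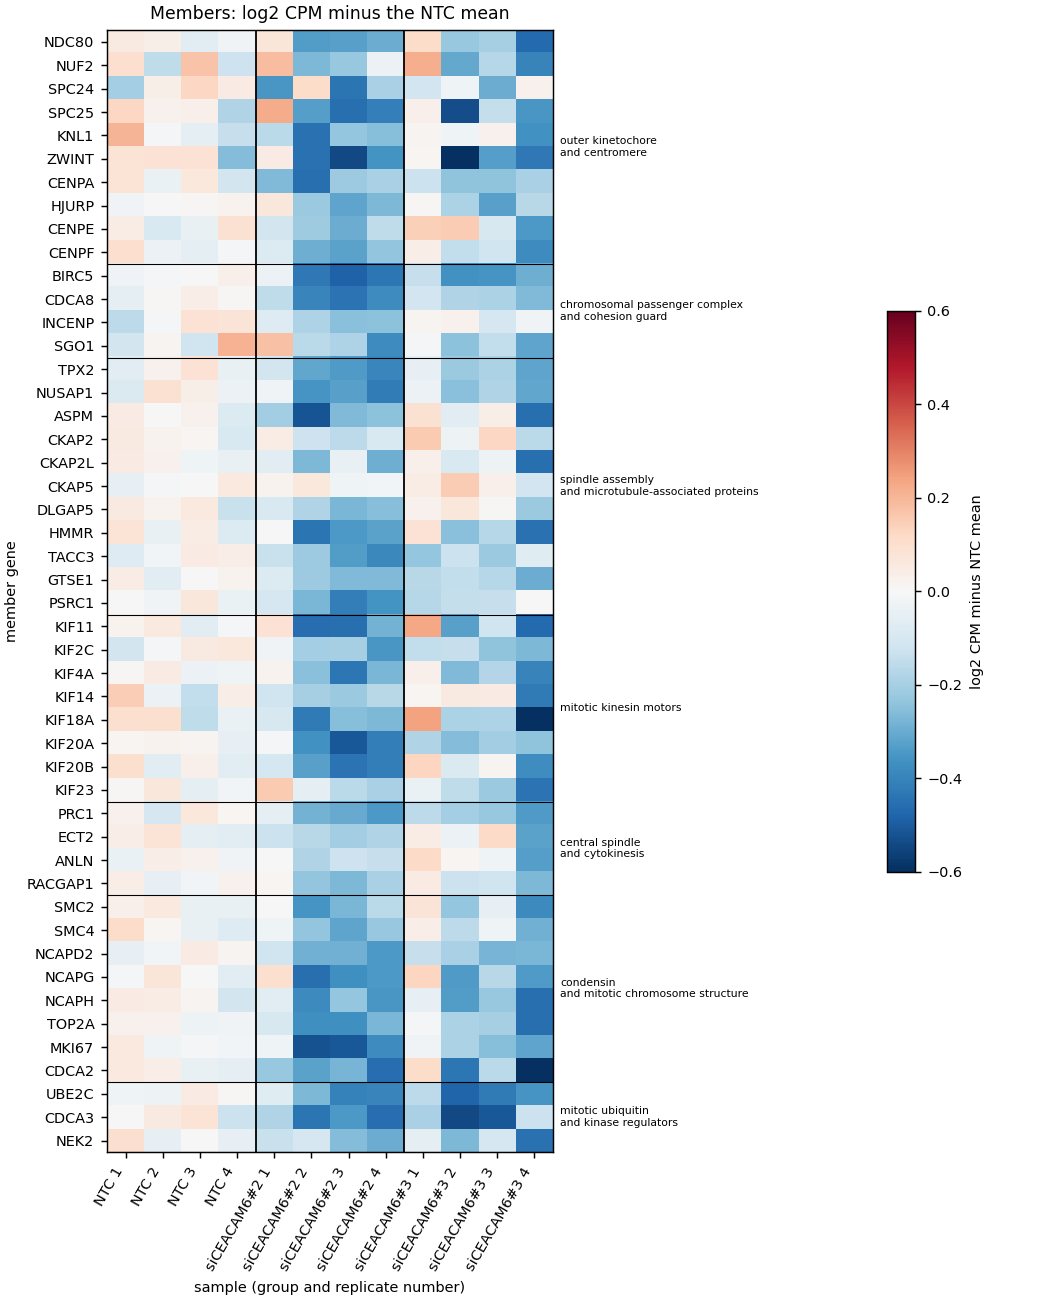
Log2 CPM of each of the 48 members (rows, grouped by role) in each of the 12 samples (columns), minus the mean of the 4 NTC samples; blue is lower and red is higher than NTC, and the colour scale ends at 0.6 in either direction. The columns of siCEACAM6#2 samples 2, 3 and 4 and of siCEACAM6#3 sample 4 are blue almost throughout, and the columns of both siRNA samples numbered 1 are pale.

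Averaged over the members, the sample numbered 1 of each siRNA group lay near NTC. The mean over members of log2 CPM minus the NTC mean was 0.02, 0.0049, 0.0063 and -0.03 in the NTC samples. It was -0.05, -0.29, -0.31 and -0.29 in siCEACAM6#2 samples 1 to 4, and -0.0017, -0.19, -0.15 and -0.32 in siCEACAM6#3 samples 1 to 4. In siCEACAM6#2 sample 1 33 members were below the NTC mean, against 46, 48 and 48 in the other siCEACAM6#2 samples, and it was the highest of its group for 43 members. It was still below the lowest NTC sample for 21 members, against 44 to 46 in the other 3. In siCEACAM6#3 sample 1 21 members were below the NTC mean, against 42, 40 and 46, and it was the highest of its group for 35 members. It was below the lowest NTC sample for 13 members, against 35 to 44 in the other 3. CEACAM6 was below all NTC samples in both, at 353 CPM in siCEACAM6#2 sample 1, where the other 3 had 286 to 343, and at 423 CPM in siCEACAM6#3 sample 1, where the other 3 had 386 to 438. Mitochondrial genes held 12.3% and 12.5% of their counts, which is within the NTC range of 11.8% to 12.9%, whereas the other siCEACAM6#3 samples had 14.3% to 15.3% and the other siCEACAM6#2 samples 12.2% to 13.3%. The part of these differences in the members' levels was not tested.

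**Figure D3:**
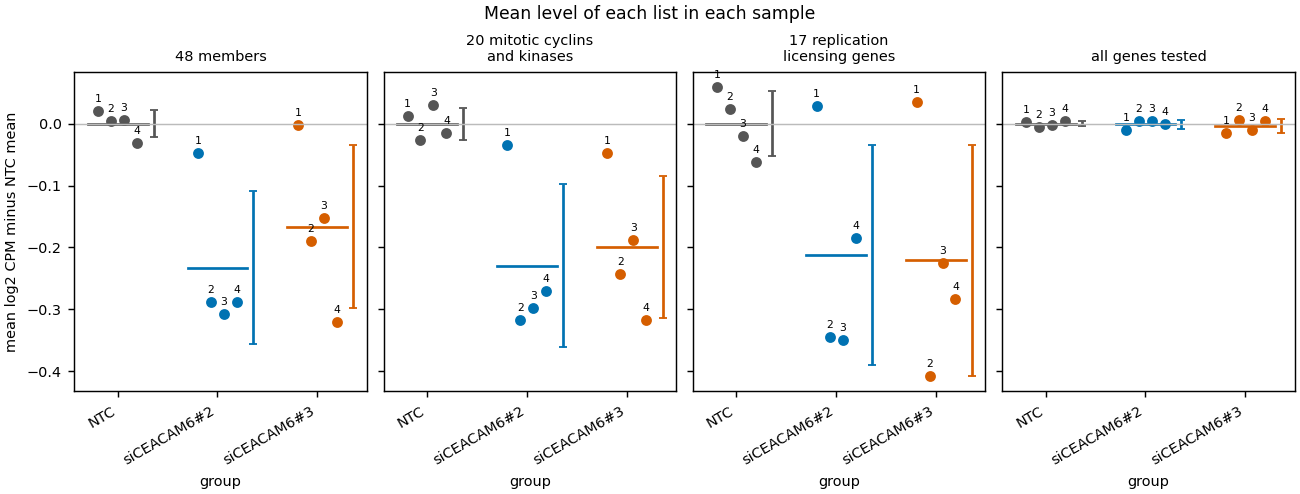
Mean over the genes of each list of log2 CPM minus the NTC mean, for each sample (points, with the replicate number above), with the group mean (line) and SD (bar, n = 4). In all 3 gene lists the siRNA samples numbered 1 sit near the NTC samples and the other siRNA samples lie below, while the mean over all genes tested stays within 0.02 of 0 in every sample.

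The number of members called depended on which samples were kept. The share of all genes called lower moved as well and is given beside each count. With siCEACAM6#2 it was 0 without any single NTC sample or siCEACAM6#2 sample 2, 3 or 4, in fits that called 0.0950% to 0.257% of all genes lower. It was 13 without siCEACAM6#2 sample 1 (0.956%), and 8, 5 and 10 without siCEACAM6#3 samples 1, 2 and 4 (0.933%, 0.939% and 1.11%). With siCEACAM6#3 it was 2 without siCEACAM6#3 sample 1 (0.603%), 1 without siCEACAM6#2 sample 1 (0.0782%) and 0 in the other 10 fits (0.00559% to 0.106%). In the average of both it was 12 and 10 without siCEACAM6#2 or siCEACAM6#3 sample 1 (0.671% and 0.536%) and 5 without siCEACAM6#3 sample 4 (0.553%). It was 0 without any NTC sample, siCEACAM6#2 sample 2, 3 or 4, or siCEACAM6#3 sample 2 or 3 (0.00559% to 0.0447%). With the sample numbered 1 left out of all 3 groups, 15 members were called lower with siCEACAM6#2 (0.740% of all genes) and 3 with siCEACAM6#3 (0.475%). With only the 2 siRNA samples numbered 1 left out, 25 members were called with siCEACAM6#2 (1.72%) and 19 with siCEACAM6#3 (1.86%), all of them lower. These last fits were chosen after the values were seen, and the samples were left out for lying near NTC, so a larger count in them is no separate support.

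**Figure D4:**
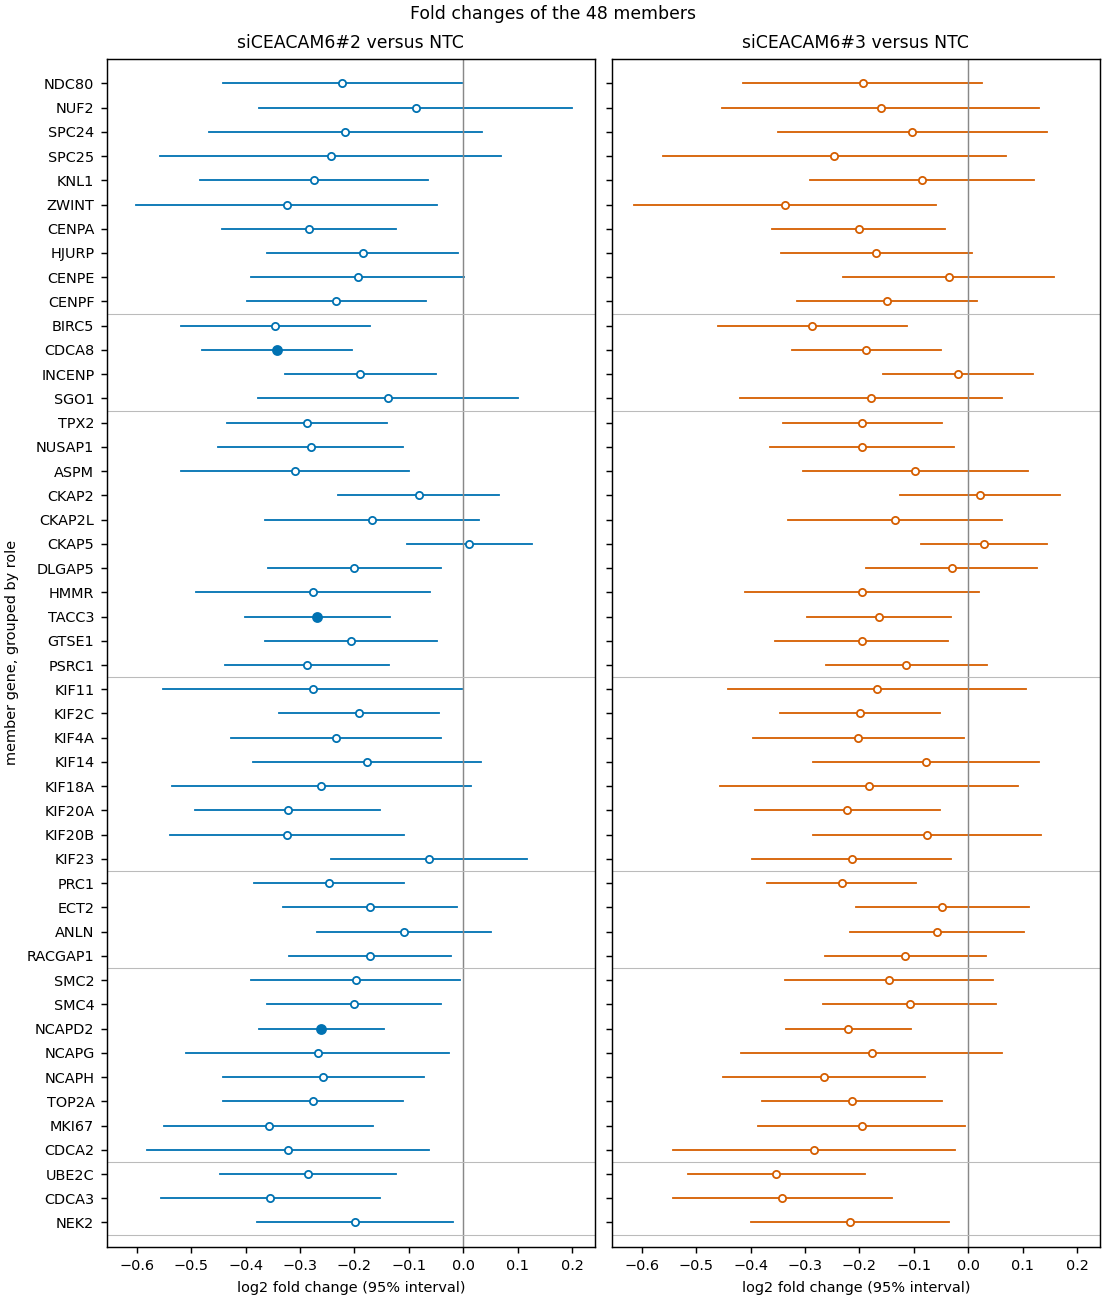
Log2 fold change versus NTC of each member with its 95% interval (limma-voom), for siCEACAM6#2 (left) and siCEACAM6#3 (right), in the order of the roles described in the text; filled points passed a Benjamini-Hochberg adjusted p under 0.05. Nearly all points lie left of 0, and the 3 filled points (CDCA8, TACC3 and NCAPD2) are all with siCEACAM6#2.

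The outer kinetochore binds microtubule ends, and CENPA marks the chromatin it is built on. All 10 members of this role were negative with both siRNAs, with medians of -0.23 with siCEACAM6#2 and -0.17 with siCEACAM6#3, and none was called. ZWINT, which links the KNL1 scaffold to the checkpoint complex RZZ, had the largest changes of the role, -0.32 and -0.34. Its CPM was 35.5, 35.7, 35.6 and 28.02 in NTC, 34.7, 24.6, 23.0 and 26.1 with siCEACAM6#2, and 33.8, 22.1, 26.6 and 24.9 with siCEACAM6#3. NTC sample 4 overlapped the siRNA samples, and sample 1 of each siRNA group was nearly level with the higher NTC samples. For ZWINT the adjusted p was 0.276 and 0.313 (limma-voom, Benjamini-Hochberg).

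CENPA, the centromeric histone, was at 16.7 ± 1.04 CPM in NTC, against 13.7 ± 1.07 with siCEACAM6#2 and 14.5 ± 0.533 with siCEACAM6#3 (SD, n = 4), and no siRNA sample overlapped NTC. HJURP, which deposits CENPA, had log2 fold changes of -0.18 and -0.17. The 4 subunits of the NDC80 complex, which makes the microtubule contact, had fold changes of -0.22 (NDC80), -0.09 (NUF2), -0.22 (SPC24) and -0.24 (SPC25) with siCEACAM6#2 and of -0.19, -0.16, -0.10 and -0.25 with siCEACAM6#3, none of them called. SPC25, NUF2 and SPC24 were the members with the fewest counts, and their standard errors were among the highest, from 0.12 to 0.15 on the log2 scale. The motor CENPE and its partner CENPF had -0.19 and -0.23 with siCEACAM6#2 and -0.04 and -0.15 with siCEACAM6#3.

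KNL1, the scaffold that recruits checkpoint kinases, was at 22.9, 19.8, 19.2 and 18.1 CPM in NTC, at 17.8, 14.6, 16.96 and 16.7 with siCEACAM6#2 and at 20.2, 19.6, 20.3 and 15.5 with siCEACAM6#3. All siCEACAM6#2 samples were below NTC, and with siCEACAM6#3 only sample 4 was. The log2 fold changes were -0.27 (95% interval -0.48 to -0.07) and -0.08 (-0.29 to 0.12), not called. The second value turned positive on log2 TPM (0.15 with a pseudocount of 1) and without siCEACAM6#3 sample 4 (0.0050).

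The chromosomal passenger complex corrects wrong attachments and later guides the cleavage furrow. CDCA8 (borealin; ENSG00000134690, chr1:37692481-37709719), which targets the complex to centromeres, fell with siCEACAM6#2. Its CPM was 35.8, 37.2, 38.1 and 37.2 in NTC, 33.4, 28.2, 27.2 and 28.5 with siCEACAM6#2 and 34.2, 32.7, 32.5 and 30.9 with siCEACAM6#3. No siRNA sample reached NTC, and sample 1 was the highest of each siRNA group. With siCEACAM6#2 its log2 fold change was -0.34 ± 0.065 (SE; Benjamini-Hochberg adjusted p by limma-voom 0.0179), -0.19 ± 0.065 with siCEACAM6#3 (0.255) and -0.27 ± 0.056 in the average (0.0592). Of 25 alternatives, 9 lost the call with siCEACAM6#2, including each one that left out a single sample from NTC or from siCEACAM6#2 samples 2, 3 and 4, and the fold change stayed between -0.42 and -0.31. Here and below, the alternatives include the 2 fits without samples numbered 1, which were chosen after the values were seen.

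BIRC5 (survivin), another subunit of the complex, was at 73.6, 73.9, 74.7 and 76.1 CPM in NTC, a spread of 1.12 (SD). It was at 72.8, 55.4, 53.3 and 55.2 with siCEACAM6#2 and at 67.7, 58.0, 58.4 and 60.9 with siCEACAM6#3. All siRNA samples were below NTC, siCEACAM6#2 sample 1 only just. The log2 fold changes of -0.35 and -0.29 had adjusted p-values of 0.0509 and 0.179 (limma-voom, Benjamini-Hochberg). Of the other alternatives, 11 of 25 called BIRC5 with siCEACAM6#2 and 3 of 25 with siCEACAM6#3. Both counts include the 2 fits without samples numbered 1, which are no separate support.

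INCENP, the scaffold of the same complex, had -0.19 with siCEACAM6#2 and -0.02 with siCEACAM6#3. Its CPM was 35.6, 39.4, 42.1 and 41.7 in NTC, 37.6, 34.8, 33.3 and 33.4 with siCEACAM6#2 and 40.0, 40.4, 36.9 and 39.1 with siCEACAM6#3. The siCEACAM6#3 samples lay within the NTC range, as did siCEACAM6#2 sample 1. SGO1, the shugoshin that guards centromeric cohesion, had -0.14 and -0.18, not called.

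Spindle assembly factors nucleate, bundle and stabilise microtubules. Of the 11 members, 10 were negative with siCEACAM6#2 (median -0.27, 1 called) and 9 with siCEACAM6#3 (median -0.14, 0 called). TACC3 (ENSG00000013810, chr4:1712858-1745171), which crosslinks kinetochore microtubules together with CKAP5 and clathrin, fell with siCEACAM6#2. It was at 56.0, 58.4, 61.1 and 60.7 CPM in NTC, 53.8, 50.7, 46.7 and 45.2 with siCEACAM6#2 and 50.2, 54.0, 50.5 and 56.2 with siCEACAM6#3. The siCEACAM6#2 samples lay below NTC, and siCEACAM6#3 sample 4 was within the NTC range. The fold change was -0.27 ± 0.063 (SE) with siCEACAM6#2 (Benjamini-Hochberg adjusted p by limma-voom 0.0482) and -0.16 ± 0.062 with siCEACAM6#3 (0.298). The call was lost in 13 of 25 alternatives.

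CKAP5, the microtubule polymerase that works with TACC3, did not follow the other members. It was at 133, 137, 138 and 143 CPM in NTC, 140.2, 144, 136 and 136 with siCEACAM6#2 and 142, 153, 141 and 127 with siCEACAM6#3, and all 3 groups overlapped. Its fold changes were 0.01 (95% interval -0.10 to 0.13) and 0.03 (-0.09 to 0.14), and their sign depended on the scaling. CKAP2, a spindle-associated protein, was at 76.6, 74.8, 74.3 and 69.2 CPM in NTC, 76.1, 67.6, 66.1 and 69.2 with siCEACAM6#2, and 82.1, 72.03, 80.3 and 65.8 with siCEACAM6#3. Its fold changes were -0.08 (-0.23 to 0.07) and 0.02 (-0.13 to 0.17), with no separation of the groups.

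TPX2, which activates Aurora A on the spindle, had -0.29 with siCEACAM6#2 and -0.19 with siCEACAM6#3 and was not called (Benjamini-Hochberg adjusted p by limma-voom 0.0535 and 0.26). NUSAP1 and HMMR, both microtubule-binding, each had -0.28 with siCEACAM6#2, and -0.19 and -0.20 with siCEACAM6#3. GTSE1 had -0.21 and -0.20, and CKAP2L -0.17 and -0.14. DLGAP5 (HURP), which stabilises kinetochore fibres, had -0.20 and -0.03.

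ASPM, which holds the spindle poles, was at 43.8, 42.4, 43.1 and 40.0 CPM in NTC, 36.6, 29.5, 35.2 and 35.6 with siCEACAM6#2 and 45.1, 40.3, 43.3 and 30.9 with siCEACAM6#3. The siCEACAM6#2 samples were all below NTC, and with siCEACAM6#3 only sample 4 was. The fold changes were -0.31 and -0.10, neither called. PSRC1, a microtubule-binding protein of the spindle, was at 28.1, 27.7, 29.5 and 27.4 CPM in NTC, 26.3, 23.3, 21.2 and 21.9 with siCEACAM6#2 and 25.0, 25.5, 25.6 and 28.2 with siCEACAM6#3. Here siCEACAM6#3 sample 4 was the highest of its group and reached NTC. Its fold changes of -0.29 and -0.11 were not called (Benjamini-Hochberg adjusted p by limma-voom 0.0593 and 0.523).

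**Figure D5:**
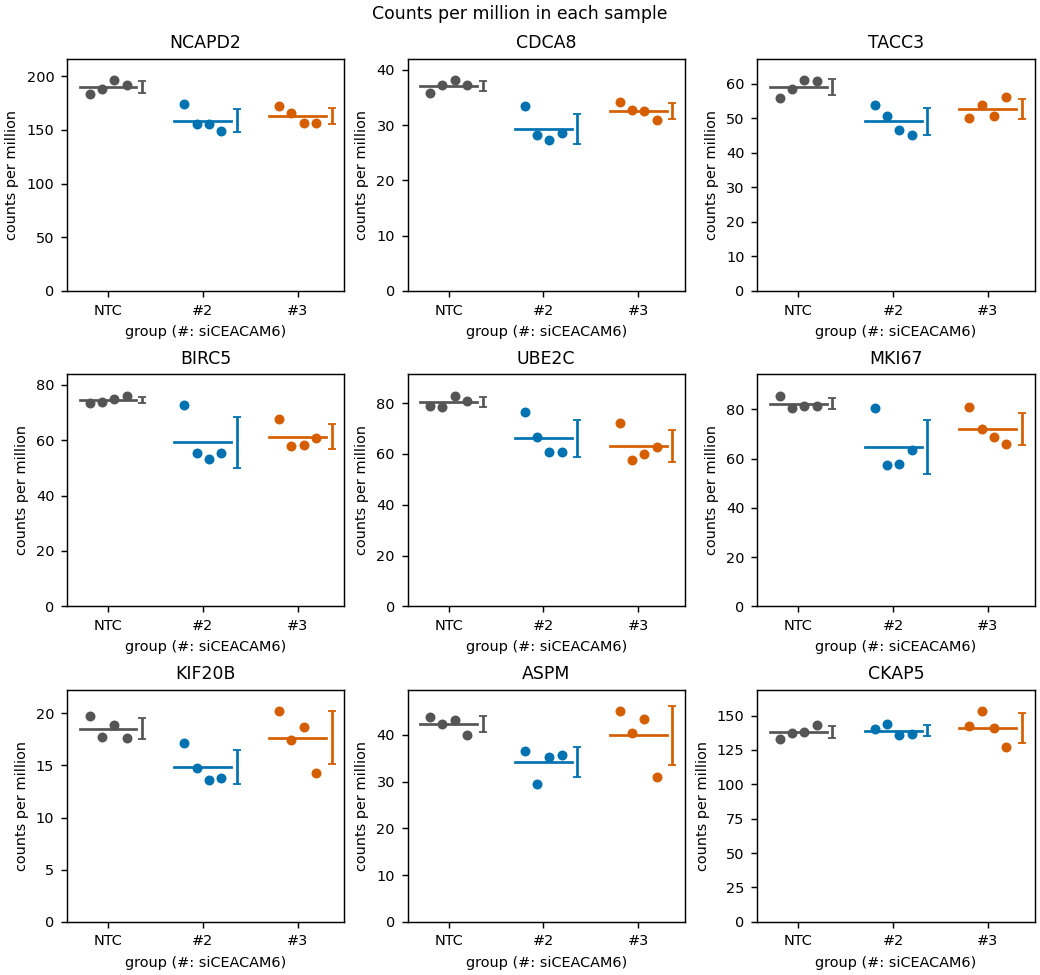
CPM of 9 members in each of the 4 samples per group (points, in the order of the replicate numbers), with the group mean (line) and SD (bar). NCAPD2, CDCA8, BIRC5 and UBE2C show no overlap of either siRNA with NTC, in KIF20B and ASPM the siCEACAM6#3 samples overlap NTC and the siCEACAM6#2 samples do not, and in CKAP5 all 3 groups overlap.

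The mitotic kinesins push poles apart, move chromosomes and shorten microtubule ends. All 8 were negative with both siRNAs (medians -0.25 and -0.19) and none was called. KIF20A, which carries the passenger complex to the midzone, was at 55.4, 55.9, 55.7 and 53.2 CPM in NTC, 54.8, 42.8, 38.6 and 41.3 with siCEACAM6#2 and 48.6, 45.9, 47.7 and 46.6 with siCEACAM6#3. The siCEACAM6#3 samples were tight and below NTC, whereas siCEACAM6#2 sample 1 lay within NTC. Its fold changes were -0.32 and -0.22 (Benjamini-Hochberg adjusted p by limma-voom 0.0621 and 0.269).

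KIF20B, a related kinesin of the late midzone, was at 19.7, 17.7, 18.9 and 17.7 CPM in NTC, 17.2, 14.7, 13.6 and 13.8 with siCEACAM6#2 and 20.2, 17.4, 18.7 and 14.3 with siCEACAM6#3. The siCEACAM6#2 samples were below NTC, and the siCEACAM6#3 samples spanned it. KIF11 (Eg5), which separates the poles, had -0.28 and -0.17, with a standard error of 0.13. KIF18A, which limits chromosome swings, had -0.26 and -0.18, also with 0.13. KIF2C had -0.19 and -0.20, KIF4A -0.23 and -0.20, and KIF14 -0.18 and -0.08. KIF23, the motor subunit of centralspindlin, had -0.06 with siCEACAM6#2 and -0.21 with siCEACAM6#3.

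Cytokinesis starts at the central spindle, where PRC1 bundles antiparallel microtubules. PRC1 was at 96.6 ± 4.62 CPM in NTC, against 81.6 ± 7.56 with siCEACAM6#2 and 82.2 ± 4.42 with siCEACAM6#3 (SD, n = 4), with fold changes of -0.25 and -0.23 (Benjamini-Hochberg adjusted p by limma-voom 0.0777 and 0.175). RACGAP1 and ECT2, which switch on RhoA at the furrow, both had -0.17 with siCEACAM6#2, and -0.12 and -0.05 with siCEACAM6#3. ANLN (anillin), the scaffold of the contractile ring, was at 103, 109, 108 and 105 CPM in NTC, 106, 93.9, 97.7 and 96.7 with siCEACAM6#2 and 115, 107, 105 and 84.5 with siCEACAM6#3. It showed overlapping groups and fold changes of -0.11 (95% interval -0.27 to 0.05) and -0.06 (-0.22 to 0.10).

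Condensin and topoisomerase II fold and untangle the mitotic chromosome. NCAPD2 (ENSG00000010292, chr12:6493356-6531955), a HEAT-repeat subunit of condensin I, fell with siCEACAM6#2 and in the average of both siRNAs. It was at 183, 188, 196 and 192 CPM in NTC, 174, 155, 155 and 149 with siCEACAM6#2 and 172, 166, 156 and 157 with siCEACAM6#3. All 8 siRNA samples were below all NTC samples, with sample 1 the nearest in each group. The fold change was -0.26 ± 0.054 (SE) with siCEACAM6#2 (Benjamini-Hochberg adjusted p by limma-voom 0.0273), -0.22 ± 0.054 with siCEACAM6#3 (0.138) and -0.24 ± 0.047 in the average (0.0439). Of the alternatives, 9 of 25 lost the siCEACAM6#2 call and 11 of 24 the averaged call, and 5 of 25 called NCAPD2 with siCEACAM6#3. These 5 include the 2 fits without samples numbered 1, which are no separate support.

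The other subunits of condensin I followed the same direction without a call, NCAPG with -0.27 and -0.18, NCAPH with -0.26 and -0.27, SMC2 with -0.20 and -0.15 and SMC4 with -0.20 and -0.11. TOP2A, the decatenating topoisomerase, was at 172 ± 3.72 CPM in NTC, against 142 ± 12.96 with siCEACAM6#2 and 149 ± 18.5 with siCEACAM6#3 (SD, n = 4). All 8 members of this role were negative with both siRNAs. At an unadjusted p under 0.05 (limma-voom), all 8 were lower with siCEACAM6#2, against 7.12% of all genes, and 5 with siCEACAM6#3, against 6.50%.

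MKI67, the coat protein of mitotic chromosomes used as a proliferation marker, was at 85.6, 80.7, 81.5 and 81.2 CPM in NTC. It was at 80.7, 57.3, 57.9 and 63.3 with siCEACAM6#2 and at 81.0, 72.1, 68.8 and 65.9 with siCEACAM6#3. Sample 1 of each siRNA group lay at the lower NTC samples and the other 6 siRNA samples below. The fold changes were -0.36 ± 0.090 and -0.20 ± 0.090 (SE), neither called (Benjamini-Hochberg adjusted p by limma-voom 0.0656 and 0.387). CDCA2, which brings a phosphatase to chromosomes at anaphase, was at 13.3, 13.1, 12.3 and 12.3 CPM in NTC, 10.9, 10.2, 10.5 and 9.27 with siCEACAM6#2 and 13.7, 9.42, 11.4 and 8.05 with siCEACAM6#3. With siCEACAM6#2 all samples were below NTC, and with siCEACAM6#3 the spread between samples covered the NTC range.

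Of the regulators, UBE2C, CDCA3 and NEK2, all 3 were negative with both siRNAs, with medians of -0.29 and -0.34. UBE2C was at 78.8, 78.7, 83.0 and 80.8 CPM in NTC, 76.4, 66.6, 60.7 and 60.9 with siCEACAM6#2 and 72.1, 57.5, 59.9 and 62.8 with siCEACAM6#3. No siRNA sample reached NTC. The fold changes were -0.29 ± 0.077 and -0.35 ± 0.077 (SE), with adjusted p-values of 0.083 and 0.109 (limma-voom, Benjamini-Hochberg).

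CDCA3, which promotes entry into mitosis through degradation of WEE1, had the largest averaged fold change of the members, -0.35. It was at 22.9, 23.9, 24.4 and 21.03 CPM in NTC, 20.3, 16.98, 18.1 and 16.7 with siCEACAM6#2 and 20.1, 15.8, 16.2 and 21.02 with siCEACAM6#3. Sample 4 of siCEACAM6#3 lay only just below the lowest NTC sample. NEK2, a centrosomal kinase, had -0.20 and -0.22 and was below NTC in all 8 siRNA samples.

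The siRNAs were also compared with each other. The fold change of siCEACAM6#3 versus siCEACAM6#2 was positive for 39 of 48 members, with a median of 0.07 on the log2 scale. Limma-voom called 0 members at an adjusted p under 0.05, where 1.47% of all genes were called, and edgeR's quasi-likelihood test and DESeq2 also called 0, against 1.57% and 4.01%. At an unadjusted p under 0.05, 6 members were higher with siCEACAM6#3 and none lower, against 13.3% of all genes in either direction. The largest differences were in KIF20B, 0.25 (95% interval 0.03 to 0.47), ASPM, 0.21 (0.00099 to 0.42), KNL1, 0.19 (-0.02 to 0.40), and PSRC1, 0.17 (0.02 to 0.33). Without siCEACAM6#3 sample 4 the first 3 were larger, at 0.34, 0.33 and 0.28. ASPM was then called, in a fit that called 1.76% of all genes in either direction. With any 1 sample left out these 3 differences stayed positive, with lowest values of 0.18, 0.15 and 0.13. CEACAM6 itself differed by 0.35 (Benjamini-Hochberg adjusted p by limma-voom 0.016), so the siRNAs did not lower their target equally.

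Beyond the 48, 69 further genes of the same structures were listed, with other results of these data known. With siCEACAM6#2, 62 of 69 were negative, with a median of -0.13, and 5 were called lower, against 0.641% of all genes. With siCEACAM6#3, 58 were negative, with a median of -0.11, and 0 were called, against 0.0170% of all genes lower. The called genes were KIF18B (-0.52), a plus-end kinesin, ESPL1 (separase, -0.39), KIFC1 (-0.33), a minus-end kinesin, TROAP (-0.33) and SPAG5 (astrin, -0.28). KIF18B and ESPL1 were also called in the average, at -0.41 and -0.31, where 0.0908% of all genes were called lower. The inner kinetochore and CENPA-loading genes (16, medians -0.09 and -0.11), the Mis12, Ska and RZZ complexes (11, -0.09 and -0.10) and augmin with gamma-tubulin (10, -0.05 and -0.09) had none called. The shares of all genes called lower were 0.641% and 0.0170%. Among the roles of the 48, the outer kinetochore, the kinesins, the central spindle and the regulators also had none called. With siCEACAM6#2 the medians of these further sets lay closer to 0 than those of the 7 roles of the 48.

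The members were also set beside 2 lists of other cell cycle genes. The 20 mitotic cyclins and kinases had medians of -0.26 and -0.19. Of them, 4 were called lower with siCEACAM6#2 (CCNB1, CDC20, FOXM1 and CDC25B), against 0.641% of all genes, and 0 with siCEACAM6#3, against 0.0170%. The 17 replication licensing genes, which act before mitosis, had medians of -0.22 and -0.20 with 0 called by limma-voom. At an unadjusted p under 0.05 in the same fit, 10 and 6 were lower, against 7.12% and 6.50% of all genes. In both lists the siRNA samples numbered 1 again lay near NTC, with mean differences of -0.03 and -0.05 for the mitotic regulators and of 0.03 in each for the licensing genes.

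The promoters of the members were searched for letters that cell cycle promoters often hold. The members were listed by their known roles in mitosis, so their shares of such letters do not depend on the siRNAs. Whether the letters go with the fold changes was not tested. The cell cycle homology region (CHR, TTTGAA or TTCGAA) is bound by the DREAM and MuvB complexes, the CCAAT box (CCAAT) by NF-Y, and E2F sites were searched as TTT, then a pair of bases that are each C or G, then CGC. Windows of 300 bases, 250 before and 50 after the start, were read from RefSeq (GRCh38.p14) on both strands, and 42 members had 46 windows. No window was used for RACGAP1, KNL1, BIRC5, CDCA2, TPX2 and UBE2C. CHR letters were in 36 of the 46 windows (78.3%), against 12.1% of 17342 windows of tested genes and 16.4% of all 35116 windows. CCAAT was in 33 (71.7%), against 34.5% and 34.6%, and both were in 29 (63.0%), against 4.89% and 6.38%. E2F letters were in 2 (4.35%), against 4.73% and 3.31%. CKAP5, with fold changes near 0, held CHR letters as well. Of the called members, CDCA8 held CHR letters at -23 from the start and NCAPD2 at -145. The window of TACC3 held no CHR, CCAAT or E2F letters, and those of KIF20A and NEK2 held CCAAT without CHR letters.

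The stretches from 150 bases before to 30 after the start are shown for 6 members given by sample above whose CHR letters start within 100 bases of it, ordered by the p-value of the average. Capitals mark the CHR letters, or their reverse complement.
CDCA8: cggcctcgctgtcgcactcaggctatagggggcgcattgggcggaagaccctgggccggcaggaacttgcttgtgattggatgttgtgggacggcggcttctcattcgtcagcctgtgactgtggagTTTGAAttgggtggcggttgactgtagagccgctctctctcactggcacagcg
CDCA3: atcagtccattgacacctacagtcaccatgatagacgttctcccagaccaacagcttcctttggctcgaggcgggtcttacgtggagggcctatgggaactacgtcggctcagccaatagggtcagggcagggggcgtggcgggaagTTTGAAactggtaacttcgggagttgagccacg
MKI67: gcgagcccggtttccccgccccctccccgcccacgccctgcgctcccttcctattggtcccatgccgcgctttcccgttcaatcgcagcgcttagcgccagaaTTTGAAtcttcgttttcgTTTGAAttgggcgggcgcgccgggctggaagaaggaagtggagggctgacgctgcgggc
PSRC1: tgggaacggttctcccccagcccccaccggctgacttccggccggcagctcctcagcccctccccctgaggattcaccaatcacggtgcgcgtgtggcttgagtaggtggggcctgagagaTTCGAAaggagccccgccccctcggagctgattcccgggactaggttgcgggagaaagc
ZWINT: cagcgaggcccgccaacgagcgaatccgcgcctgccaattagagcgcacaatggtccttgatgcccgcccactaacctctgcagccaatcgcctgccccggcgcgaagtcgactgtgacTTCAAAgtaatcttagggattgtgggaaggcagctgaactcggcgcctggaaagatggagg
INCENP: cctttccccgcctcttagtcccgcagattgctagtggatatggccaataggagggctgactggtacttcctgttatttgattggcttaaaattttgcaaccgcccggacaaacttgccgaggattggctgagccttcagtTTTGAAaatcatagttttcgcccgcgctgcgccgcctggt
They lie at chr1:37692366-37692545 (plus strand, CDCA8), chr12:6851257-6851436 (minus, CDCA3), chr10:128126394-128126573 (minus, MKI67), chr1:109283116-109283295 (minus, PSRC1), chr10:56361230-56361409 (minus, ZWINT) and chr11:62123861-62124040 (plus, INCENP). The CHR letters begin 23 bases before the start in CDCA8, 3 in CDCA3, 47 and 29 in MKI67, 29 in PSRC1, 31 in ZWINT and 10 in INCENP. Each stretch also holds at least 1 CCAAT or ATTGG, and in CDCA8 and MKI67, alone among the 46 windows, one of these shares a base with the CHR letters. These are matches of letters and not shown sites of binding.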

How the data were processed

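Per the labels and the study's methods, the authors trimmed reads with Trim Galore 0.6.4 and quantified transcripts with kallisto against GRCh38.p13. The labels give the kallisto version as 0.4.6 and the methods give a different one. They deposited, for each sample, estimated counts per gene that are mostly not whole numbers, and transcripts-per-million (TPM), scaled for transcript length and library total. The labels describe paired, strand-specific reads and the methods single reads. Of the 60617 gene identifiers, 60357 were in the gene name table.

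Estimated counts were rounded, genes filtered by group with filterByExpr, and libraries scaled by TMM. One limma-voom model of the 3 groups (all 12 samples, no covariate) gave each contrast, adjusted by Benjamini-Hochberg over 17620 genes and called under 0.05 (R 4.3.3, limma 3.58.1, edgeR 4.0.16). Counts-per-million (CPM) use the TMM-scaled library sizes. Alternatives were edgeR's quasi-likelihood test, DESeq2 1.42.0, log2 TPM, other scalings and filters, sample weights, a replicate block, fits of the compared groups only and leaving out each sample. The scripts were tested on simulated data. Nothing ties samples to separate cultures beyond the series' mention of individual experiments, so p-values measure the spread between these samples.

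The members, the other lists and the tests were chosen with earlier results of these data known. Values in every sample are given for members chosen by a stated rule: those called in any contrast, the 8 with the largest change in the average of both siRNAs, the 4 with the largest difference between the siRNAs and the 4 nearest to 0 in the average. Promoter stretches are given for at most 6 of these with CHR letters within 100 bases of the start, by p in the average of both siRNAs. KIF20B was left out because its CHR letters do not all lie within the printed stretch.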

Additional observations from a re-analysis of the deposited data

Results flagged for a closer look

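Of 60 groups of 4 samples examined, 6 had 1 sample far from the other 3, and chance alone sets a sample apart in about 1 in 20 groups. In NTC these were ZWINT at 28.02 CPM in sample 4 (lowest), MKI67 at 85.6 CPM in sample 1 (highest) and KIF20A at 53.2 CPM in sample 4 (lowest). With siCEACAM6#2, sample 1 was far above the others in BIRC5, at 72.8 CPM, and in the mean over the 48 members of log2 CPM minus the NTC mean, at -0.048. With siCEACAM6#3, KNL1 was far lower in sample 4 than in the others, at 15.5 CPM.

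The siRNAs differed in their effect on CEACAM6, which was higher with siCEACAM6#3 than with siCEACAM6#2 with a log2 difference of 0.35 (Benjamini-Hochberg adjusted p by limma-voom 0.016), and in which the samples did not overlap.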

How the results depend on the processing

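The median member fold change kept its direction in all alternatives, between -0.31 and -0.21 with siCEACAM6#2, -0.23 and -0.14 with siCEACAM6#3, -0.25 and -0.18 in the average, and 0.0034 and 0.13 between the siRNAs. No member was called higher than NTC in any of them. Counts of called members were less stable, and the cause was not tested. They are given for siCEACAM6#2, siCEACAM6#3 and the average in turn, with the share of all genes called lower in the same fit in parentheses. DESeq2 called 14, 3 and 10 (1.97%, 0.808% and 1.08%). The log2(TPM + 1) scale gave 0, 0 and 0 (0.0114%, 0.0227% and 0.0114%), and log2(TPM + 0.1) also 0, 0 and 0 (0.0170%, 0.0227% and 0.0170%). Library size only gave 4, 0 and 2 (0.715%, 0.0170% and 0.170%), and a mean CPM of at least 1 gave 5, 0 and 3 (0.872%, 0.0200% and 0.226%). Sample weights gave 30, 5 and 22 (3.39%, 1.07% and 2.89%), and 1 member between the siRNAs (KIF20B, against 3.18% of all genes in either direction). An adjusted p under 0.1 gave 12, 0 and 8 (1.37%, 0.0454% and 0.607%). Fits of only the compared groups called 16 with siCEACAM6#2 (1.87%) and 0 with siCEACAM6#3 (0.00583%), and they give no average. In the 2 settings chosen after seeing the data, the counts were 25, 19 and 30 without both siRNA samples numbered 1 (1.72%, 1.86% and 2.44%), and 15, 3 and 17 without all 3 samples numbered 1 (0.740%, 0.475% and 0.537%). Leaving out single samples gave 0 to 13, 0 to 2 and 0 to 12, and 0 to 1 between the siRNAs (ASPM, against 1.76% of all genes in either direction).

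With the replicate number as a replicate block, 8, 1 and 5 members were called (0.868%, 0.238% and 0.352% of all genes). The numbers were not taken as pairs: deviations of same-numbered siRNA samples correlated at 0.18, 0.11, -0.00090 and -0.0085, and not every sample correlated best with its own number.

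Small fold changes changed sign. KNL1 with siCEACAM6#3 was 0.15 and 0.17 on log2(TPM + 1) and log2(TPM + 0.1). CKAP5 with siCEACAM6#2 was -0.00033 with library size only and -0.0073 without all 3 samples numbered 1, and with siCEACAM6#3 -0.051 and -0.053 on the log2 TPM scales and -0.0017 with library size only. CKAP2 with siCEACAM6#3 was -0.027 and -0.028 on these scales, -0.0090 with library size only and -0.018 without both siRNA samples numbered 1. Leaving out single samples gave ranges with siCEACAM6#3 of -0.14 to 0.020 (KIF20B), -0.15 to 0.019 (ASPM), -0.13 to 0.0050 (KNL1), -0.012 to 0.075 (CKAP5), -0.017 to 0.082 (CKAP2), -0.11 to 0.033 (ANLN) and -0.067 to 0.014 (INCENP), and -0.0040 to 0.030 for CKAP5 with siCEACAM6#2.

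The fold change of CEACAM6 ranged from -0.86 to -0.75 with siCEACAM6#2 and from -0.50 to -0.43 with siCEACAM6#3 when single samples were left out. The second call was lost without NTC sample 2, 3 or 4 (-0.47, -0.44 and -0.43) or siCEACAM6#3 sample 3 (-0.47).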
